A study of Arabidopsis thaliana with 12 samples.

Results

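Paraquat is a bipyridyl herbicide that takes electrons from the electron transport chains of plastids and mitochondria and passes them to oxygen, so that treated cells form superoxide. The genes described here are all those that the authors listed for roots of wild-type Arabidopsis thaliana grown with paraquat against roots grown without it. They number 7253 of the 33602 genes tested (21.6%), and the listing limit was an adjusted p under 0.1. Genes outside the list did not pass that limit.

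Seedlings of accession Col-0 (WT) were grown on plates of MS medium with no paraquat or with 0.01 uM paraquat, and their roots were taken 6 days after germination, with 3 replicates in each group, which the series' design text calls biological. Per the labels' protocols, ribosomal RNA was removed from total RNA before Illumina libraries were made. Plants labelled trm4b-1, a mutant line named for the RNA cytosine methyltransferase gene TRM4B, were grown alongside on both media with 3 replicates each, and serve below only as a second set of samples given the same treatment. The authors' deposited tables put TRM4B RNA above WT in the libraries that carry the mutant label, by a log2 value of 2.89 ± 0.08 without paraquat and 3.90 ± 0.08 with it, so that group is called by its label throughout. TRM4B was not listed as changed by paraquat in WT.

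The files used here hold 1 value per gene and comparison and none for single samples. Library depth is therefore unknown, values by sample cannot be shown, and changes are given as log2 fold changes, paraquat minus control, with a recovered standard error after the ± sign. A gene is said to have risen or fallen where its adjusted p, as deposited by the authors, was under 0.05, and the submitters' processing notes name limma as the tool. The samples are whole roots, so fewer cells of a type and less RNA per cell cannot be told apart.

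In WT roots 5711 genes changed (17.0% of those tested), of which 2685 rose (7.99%) and 3026 fell (9.01%). Of the 27444 annotated nuclear protein-coding genes, the kind that most lists below hold, 2521 rose and 2908 fell (19.8% changed). The share over all tested genes, set beside the lists below, is therefore lower than that over protein-coding genes. The median change was 0.75 among genes that rose and -0.70 among genes that fell, and the standard error of the changed genes had a median of 0.147 and ran from 0.068 to 1.19. A change of at least 1 on the log2 scale was reached by 1858 genes (5.53%), 915 higher and 943 lower. Beyond that size the balance shifted, with 362 higher and 234 lower at 2 or more, 132 and 52 at 3 or more, and 57 and 9 at 4 or more. At 5 or more there were 27 genes higher and 1 lower. The genes nearest the listing limit were AT5G15570 at 0.28 and AT1G54850 at 0.44, each with an adjusted p of 0.0999 in the authors' deposited table (limma), and LOG1 at -0.66.

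**Figure D1:**
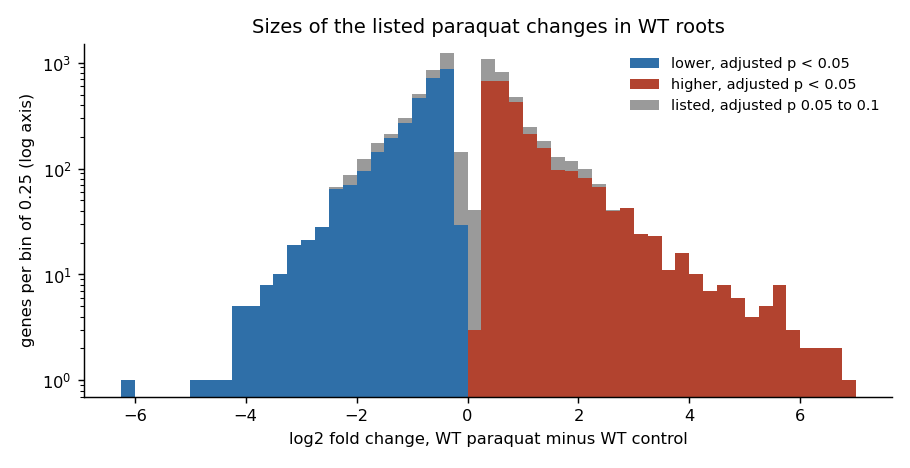
Number of listed genes (log axis) in bins of 0.25 of the log2 fold change, WT paraquat minus WT control, with the 3026 genes that fell in blue, the 2685 that rose in red and listed genes that missed an adjusted p of 0.05 in grey. The higher side reaches 6.79 and thins more slowly than the lower side, which holds 1 gene beyond -5.

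AT3G47480, which encodes an EF-hand calcium-binding protein, headed the genes that rose in the authors' deposited table, at 6.79 ± 0.68 (111-fold; chromosome 3, 17496354 to 17496947, minus strand, TAIR10). It was followed in the authors' deposited table by AT2G04050, a MATE efflux carrier gene, at 6.69 ± 0.47 (103-fold; chromosome 2, 1337386 to 1339270, minus strand), and by the cupin gene AT5G38910 at 6.53 ± 0.45. The other genes among the 15 largest rises encode, among others, the wall-associated kinase WAK3, the glucosyltransferase UGT73C5, the cytochromes P450 CYP71A13, CYP82C2 and CYP71A12, the salicylate pathway enzyme PBS3, the lipase GLIP1 and the ethylene response factor HRE2. In the authors' deposited table WAK3 stood at 6.39 ± 0.70, PBS3 at 6.03 ± 0.76 and GLIP1 at 5.71 ± 0.84. All 15 lay at 5.57 or above.

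The largest fall was that of GLR2.3, a glutamate receptor-like channel gene, at -6.02 ± 0.45 in the authors' deposited table (64.7-fold lower; chromosome 2, 10516880 to 10520549, minus strand). AT5G62360, a gene for a pectin methylesterase inhibitor, followed in the authors' deposited table at -4.89 ± 0.44. Among the other genes with the largest falls were the receptor kinase gene AT1G49100, the myrosinase gene TGG1, the thioredoxin-like gene WCRKC1, the fructose-bisphosphate aldolase gene FBA5 and the cold- and clock-regulated gene COR27, which the authors' deposited table put at -4.32 ± 0.56, -4.17 ± 1.04, -4.14 ± 0.54, -3.94 ± 1.11 and -3.81 ± 0.35. The lowest adjusted p of the whole comparison belonged to a fall, that of the amino acid transporter gene UMAMIT17 (-3.68 ± 0.15, adjusted p = 3.62e-09 by limma in the authors' deposited table), followed by the rises of UPOX and GSTF6 (4.20e-09 for each).

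Plant mitochondria carry alternative oxidases and external and internal NAD(P)H dehydrogenases that pass electrons around the proton-pumping complexes. When mitochondrial electron transport is disturbed, NAC013 and NAC017, transcription factors held at the endoplasmic reticulum membrane, are released and act on a set of nuclear genes through a promoter motif made of CTTG and CAAG or CACG 5 bases apart. Of 18 genes of alternative respiration and this retrograde response, 13 rose and none fell (72.2% against 7.99% of all tested genes), with a median of 2.62 over the 13 listed. The authors' deposited table gave AT12CYS-2, which encodes a small twin-cysteine mitochondrial protein, 5.35 ± 0.34, AOX1D 4.74 ± 0.65 and UPOX 4.65 ± 0.20. The external NAD(P)H dehydrogenase genes NDB4 and NDB3 followed in the authors' deposited table at 4.33 ± 0.36 and 4.06 ± 0.40, with UGT74E2 at 3.01 ± 0.16 and the outer membrane protein gene OM66 at 2.62 ± 0.19. AOX1A, the isoform most often used as the marker of this response, had the smallest rise of the 13, at 1.13 ± 0.08 in the authors' deposited table. NAC013 itself rose by 2.11 ± 0.12 in the authors' deposited table, and NAC017, AOX1B, AOX1C, NDA2 and AT5G64400 were not listed.

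The motif lies between 250 bases before and 50 bases after the annotated start, on either strand, in 10 of the 18 promoters of this list (55.6%) and in 1.42% of the 27444 promoters of protein-coding genes. The motif was first described on genes of this list, so its share there is not independent of the list. Over all genes that rose it was held by 2.66% of promoters, and by 5.44% of those that rose by 1 or more. Among genes that fell, 0.757% held it. The stretches below, from the RefSeq assembly TAIR10.1, show the motif of members in which it lies before the start, with its letters in capitals. They stand in the order of their change, followed by those of members not listed. In NDB3, NAC017 and AOX1B the motif reads on the opposite strand.
UPOX: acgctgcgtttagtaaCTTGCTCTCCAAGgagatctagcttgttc, chr2:9254311-9254355, plus strand.
NDB3: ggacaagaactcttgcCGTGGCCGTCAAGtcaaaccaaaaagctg, chr4:11439604-11439648, minus strand.
NDA1: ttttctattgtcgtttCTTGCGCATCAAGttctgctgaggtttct, chr1:2204018-2204062, plus strand.
NDB2: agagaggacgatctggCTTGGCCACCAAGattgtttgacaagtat, chr4:2572332-2572376, plus strand.
NAC017: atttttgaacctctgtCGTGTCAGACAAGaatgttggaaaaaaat, chr1:12451279-12451323, plus strand.
AOX1B: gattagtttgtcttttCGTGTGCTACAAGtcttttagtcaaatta, chr3:7903963-7904007, plus strand.
NDA1 and NDB2 rose by 2.49 ± 0.29 and 1.33 ± 0.09 in the authors' deposited table, while NAC017 and AOX1B, whose promoters also hold the motif, were not listed. A match of letters in this window is a description and does not show that a factor binds there.

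Paraquat enters plant cells through polyamine and amino acid uptake carriers and is removed by efflux carriers. Of 9 genes known from work on paraquat transport and tolerance in Arabidopsis, 3 changed (33.3%, against 17.0% of all tested genes). The authors' deposited table gave ABCG39 (PDR11), a plasma membrane ABC transporter gene whose loss gives paraquat tolerance, 2.08 ± 0.27, the uptake carrier gene PUT1 0.54 ± 0.18 and its relative PUT5 -0.47 ± 0.10. The uptake carrier gene RMV1, the efflux carrier gene AT2G04100 (DTX6), the regulator gene RCD1 and the ligase gene AT4G17410 (PQT3) were among the 6 not listed. Of 11 genes commonly used as marks of oxidative stress, 4 rose (36.4%) and 1 fell (9.09%). Among these were the small heat shock protein gene HSP17.6A at 3.01 ± 0.56, the protein kinase gene OXI1 at 1.01 ± 0.11 and the ferritin gene FER1 at -1.15 ± 0.13 in the authors' deposited table.

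Enzymes that supply or use reducing power changed in both directions. Of 16 genes that feed the NADPH pool, 2 rose (12.5%) and 5 fell (31.2%). The authors' deposited table put the glucose 6-phosphate dehydrogenase gene G6PD1 at -1.47 ± 0.22 and the malic enzyme gene NADP-ME2 at -1.06 ± 0.12, and NADP-ME1 at 1.23 ± 0.30. Among 17 genes for removal of reactive aldehydes, 5 rose and 2 fell, led by the aldo-keto reductase gene AKR4C9 at 2.91 ± 0.35 and AER, which encodes an alkenal reductase, at 1.00 ± 0.15 in the authors' deposited table.

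Detoxification in plants runs from oxidation by cytochromes P450 through conjugation with glutathione or sugar to export by MATE and ABC transporters. Glutathione S-transferases showed the most uneven balance of these families, with 20 of 51 members higher (39.2%) and 4 lower. The authors' deposited table gave GSTF3 4.42 ± 0.43, GSTU12 4.08 ± 0.46, GSTF6 3.31 ± 0.15 and GSTF7 3.23 ± 0.16, and on the lower side GSTU28 -1.34 ± 0.15 and GSTU26 -1.24 ± 0.10. GSTF6 and GSTF7, like GSTF2 and GSTF3, are near-identical copies, so their reads may have been split between them.

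Among 131 UDP-glycosyltransferases 22 rose (16.8%) and 18 fell (13.7%). The highest stood side by side on chromosome 2, where AT2G36770, AT2G36780, UGT73C6 and UGT73C5 rose by 3.91 ± 0.58, 2.40 ± 0.73, 4.79 ± 0.65 and 6.31 ± 0.43 as the authors' deposited table gives it. UGT73C5, which glucosylates the fungal toxin deoxynivalenol and brassinosteroids, is annotated under another name and is not counted in the 131, and close sequence between these copies makes their separate values uncertain. The lowest of the family in the authors' deposited table was UGT85A5 at -2.77 ± 0.83.

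Of 127 ABC transporter genes 27 rose (21.3%) and 14 fell, from ABCC9 at 2.88 ± 0.35 to ABCB3 at -3.01 ± 0.54 in the authors' deposited table. Of 56 MATE carriers 9 rose (16.1%) and 4 fell. Neighbouring MATE genes did not move alike, since the authors' deposited table gave AT2G04050 and AT2G04070 6.69 ± 0.47 and 5.78 ± 0.74 but AT2G04080 -1.30 ± 0.42. The citrate exporter gene FRD3, which serves iron transport in the xylem, stood at -0.83 ± 0.10 in the authors' deposited table. Among 27 berberine bridge-like oxidases, which oxidise sugars, alcohols and indole compounds, 9 rose (33.3%) and 3 fell, with AT1G26410, AT1G26390 and AT1G26380 at 5.49 ± 0.54, 5.17 ± 0.35 and 4.33 ± 0.32 in the authors' deposited table.

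**Figure D2:**
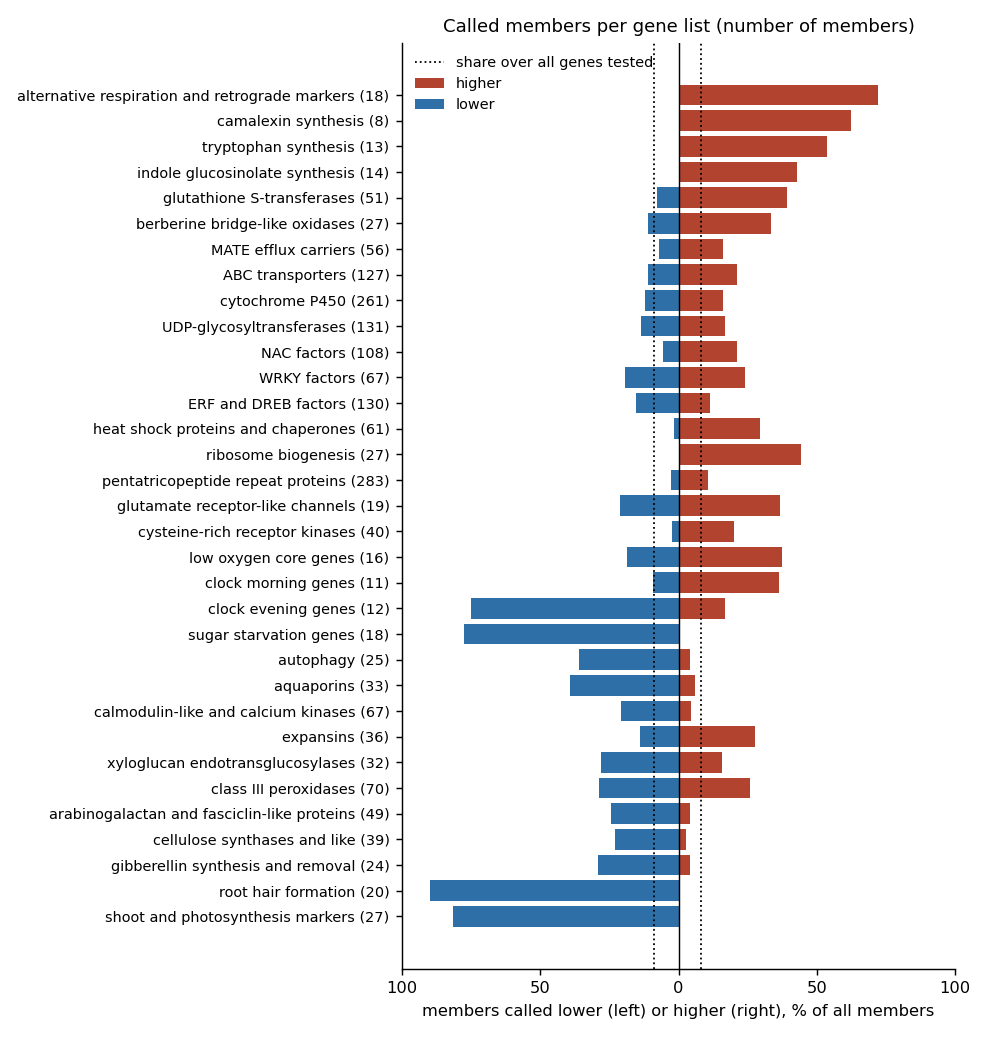
Share of members called higher (right) and lower (left) in 33 of the gene lists, as a percentage of all members, with the number of members in brackets and dotted lines at the share over all tested genes (7.99% higher, 9.01% lower). Retrograde, indole and glutathione S-transferase genes extend to the right, and root hair, photosynthesis, sugar starvation and evening clock genes to the left.

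Indole products of tryptophan serve root defence, as camalexin, a phytoalexin, and as indole glucosinolates, which myrosinases split. Members of the route rose from its first step on. Of 13 tryptophan synthesis genes 7 rose (53.8%) and none fell, with ASA1, the anthranilate synthase subunit that commits chorismate to tryptophan, at 1.28 ± 0.11, TSA1 at 1.14 ± 0.11 and TRP1 at 1.06 ± 0.13 in the authors' deposited table. Of 8 camalexin genes 5 rose and none fell. The authors' deposited table gave CYP79B2, which makes indole-3-acetaldoxime, 0.90 ± 0.13, the next enzymes CYP71A13 and CYP71A12 6.15 ± 0.57 and 5.57 ± 0.27, and PAD3, which closes the camalexin ring, 1.84 ± 0.18. CYP82C2, which hydroxylates an indole carbonyl nitrile on a route that passes through CYP71A12, rose by 5.90 ± 0.64 in the authors' deposited table. CYP71A12 and CYP71A13 are close copies, and their separate values are uncertain.

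Of 14 indole glucosinolate genes 6 rose (42.9%) and none fell. The larger rises were those of regulators and modifying steps, with CYP81F2, which hydroxylates the indole ring, at 2.72 ± 0.22, the methyltransferase gene IGMT2 at 2.32 ± 0.11 and the regulator gene MYB51 at 1.00 ± 0.15 in the authors' deposited table. In the core route the sulfotransferase gene SOT16 rose by 0.29 ± 0.09 in the authors' deposited table, and CYP83B1, SUR1 and UGT74B1 were not listed. Of 16 aliphatic glucosinolate genes 5 rose and none fell, with the side chain oxidase gene FMO GS-OX3 at 1.33 ± 0.34 and the chain elongation gene BCAT4 at 1.21 ± 0.19 in the authors' deposited table. Other branches of specialised metabolism were mixed. Of 21 genes of the core phenylpropanoid and lignin route none rose and 5 fell, with the laccase gene LAC4 at -0.79 ± 0.16 and PAL4 at -0.68 ± 0.14 in the authors' deposited table. Of 16 flavonoid genes 1 rose and 1 fell, 12.5% of members beside 17.0% of all tested genes. They were the glycosyltransferase gene UGT78D1 at 2.09 ± 0.33 and the regulator gene MYB12 at -0.75 ± 0.15 in the authors' deposited table. Of 8 genes of the thalianol and marneral clusters, root triterpene pathways, none rose and 4 fell. Over the whole cytochrome P450 family 42 of 261 rose (16.1%) and 32 fell (12.3%).

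**Figure D3:**
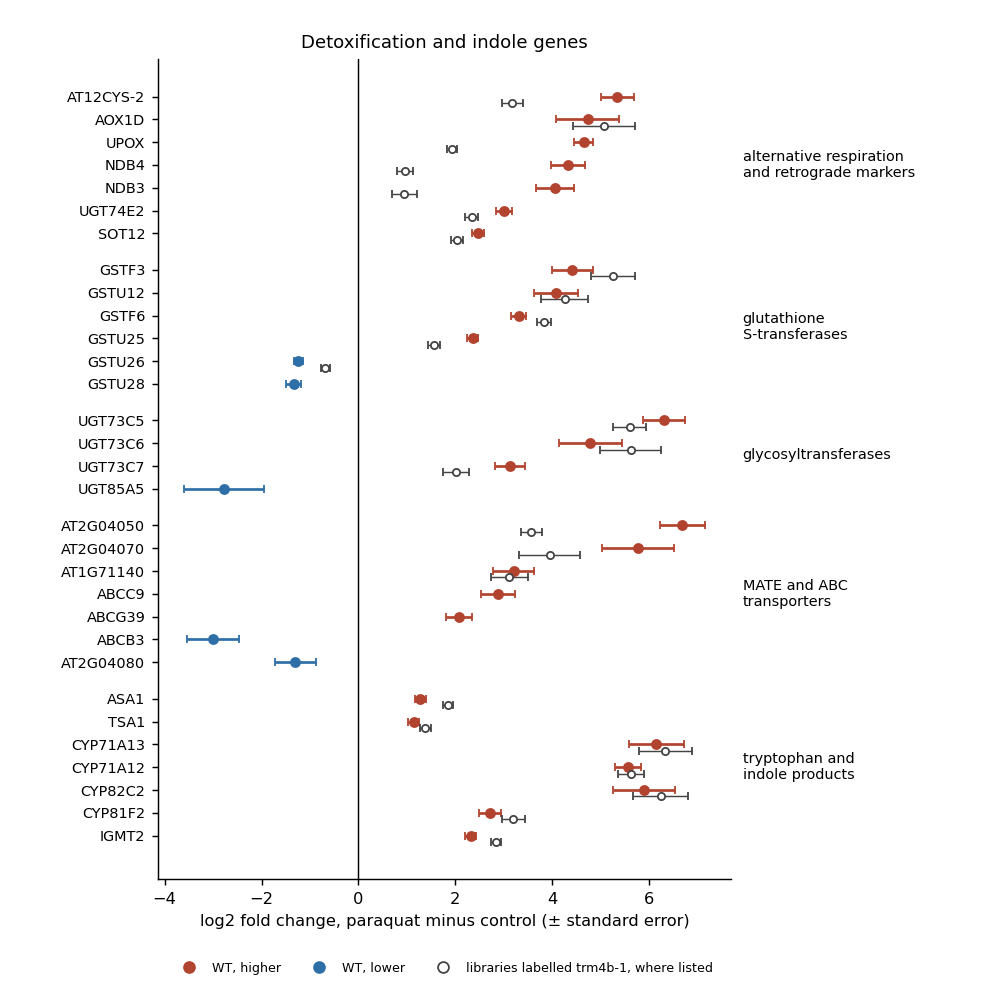
Log2 fold change with paraquat (± recovered standard error) of named genes of alternative respiration, glutathione transfer, glycosylation, transport and indole metabolism, with filled points for WT and open points for the libraries labelled trm4b-1 where the gene was listed there. UPOX, NDB4, NDB3, AT12CYS-2 and AT2G04050 lie farther right in WT, while for CYP71A13 and for CYP71A12 the point of each set lies within a standard error of that of the other.

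The plant circadian clock couples morning genes, CCA1 and LHY, to evening genes such as TOC1, ELF4 and LUX, which they repress through the evening element (AAATATCT). Of 12 genes of the evening list 9 fell (75%) and 2 rose, and of 11 morning genes 4 rose (36.4%) and 1 fell. In the authors' deposited table FKF1, a blue light receptor gene, stood at -3.77 ± 0.23, ELF4 at -3.54 ± 0.23, PRR3 at -2.29 ± 0.20, LUX at -1.88 ± 0.13 and TOC1 at -1.85 ± 0.10. PRR9, CCA1, LHY and RVE8 stood at 2.22 ± 0.19, 2.16 ± 0.18, 1.49 ± 0.17 and 1.36 ± 0.15 in the authors' deposited table. The members of the evening list that rose were LNK2 (1.79 ± 0.11) and LNK1 (1.38 ± 0.12) in the authors' deposited table. They encode coactivators of the RVE proteins, and the genes RVE8 and RVE2 stand in the morning list. The rise of LNK1 and LNK2 is therefore not read as evening genes moving against their group. All other called members of the evening list fell. The morning gene that fell was RVE2 (-0.97 ± 0.18) in the authors' deposited table. GI fell by only 0.65 ± 0.08 in the authors' deposited table, and ZTL was not listed. The hour of harvest is not given in the sources used here, so its part in these values was not tested.

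The evening element stood in 6 of the 12 promoters of the evening list (50%) and in 5.65% of all promoters in the same window. It stood in 9.11% of the promoters of genes that fell and in 11.4% of those that fell by 1 or more, but in 5.04% of those that rose. The element was described on clock-regulated genes, so its share in the evening list is not independent of that list. The stretches below show it, in capitals and in the orientation found, in promoters of clock genes and of genes among the largest falls (RefSeq, TAIR10.1).
FKF1: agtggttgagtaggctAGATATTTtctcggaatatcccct, chr1:25508437-25508476, plus strand.
TOC1: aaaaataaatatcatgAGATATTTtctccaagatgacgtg, chr5:24674796-24674835, plus strand.
LUX: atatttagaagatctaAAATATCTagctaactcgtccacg, chr3:17182974-17183013, plus strand.
PRR5: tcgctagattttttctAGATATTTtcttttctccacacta, chr5:8358710-8358749, minus strand.
COR27: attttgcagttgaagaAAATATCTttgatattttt, chr5:17199911-17199945, minus strand.
AT5G62360: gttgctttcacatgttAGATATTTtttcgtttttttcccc, chr5:25040478-25040517, plus strand.
GLR2.3: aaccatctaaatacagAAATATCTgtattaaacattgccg, chr2:10520723-10520762, minus strand.
GLR2.3 and AT5G62360, the genes with the largest falls, and COR27 share this motif with TOC1, LUX and FKF1. Other genes among the largest falls do not hold it in this window, among them LHCB1.4, AT1G49100, TGG1 and WCRKC1. Genes that rose hold it as well, among them the clock gene PRR9 and AT5G52940, one of the 15 largest rises at 5.84 ± 0.57 in the authors' deposited table. Other elements were searched in the same window. The W box (TTGAC), bound by WRKY factors, stood in 50.5% of all promoters, in 63.1% of those of genes that rose by 1 or more and in 53.8% of those that fell by 1 or more. The G box (CACGTG) stood in 7.68%, 8.59% and 8.34% of the same sets, and the heat shock element (GAANNTTC) in 11.6%, 15.8% and 11%.

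Roots live on sucrose from the shoot, and genes known as sugar starvation genes rise when carbon is short. Of 18 such genes 14 fell (77.8%) and none rose, with a median of -1.17 over the 16 listed. The authors' deposited table gave AT2G33830 (DRM2) -3.06 ± 0.27, SEN1 -2.03 ± 0.43, DRM1 -1.59 ± 0.19, the raffinose synthase gene DIN10 -1.54 ± 0.24 and AKINBETA1, a regulatory subunit of the energy-sensing kinase SnRK1, -1.51 ± 0.21. DIN2 was listed at 1.00 ± 0.34 and missed the threshold. Autophagy genes, which serve the recycling of cell contents, fell in 9 of 25 members (36%) and rose in 1, with ATG8D at -0.74 ± 0.12 and ATG8B at 0.59 ± 0.10 in the authors' deposited table.

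Genes that make galactinol, the donor for raffinose sugars, rose while a later synthase fell. The authors' deposited table put GolS4 at 3.53 ± 0.30 and GolS2 at 2.36 ± 0.48, against -2.32 ± 0.39 for the stachyose synthase gene STS. Of 31 sugar transporters 2 rose and 7 fell (22.6%). The sucrose exporters split, with SWEET14 and SWEET13 at 3.21 ± 0.42 and 2.45 ± 0.44 and the phloem genes SWEET11 and SWEET12 at -3.29 ± 0.30 and -2.92 ± 0.32 in the authors' deposited table. SUC2, the phloem loading carrier, fell by 1.06 ± 0.17 in the authors' deposited table, and over 15 phloem genes 3 rose and 6 fell.

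**Figure D4:**
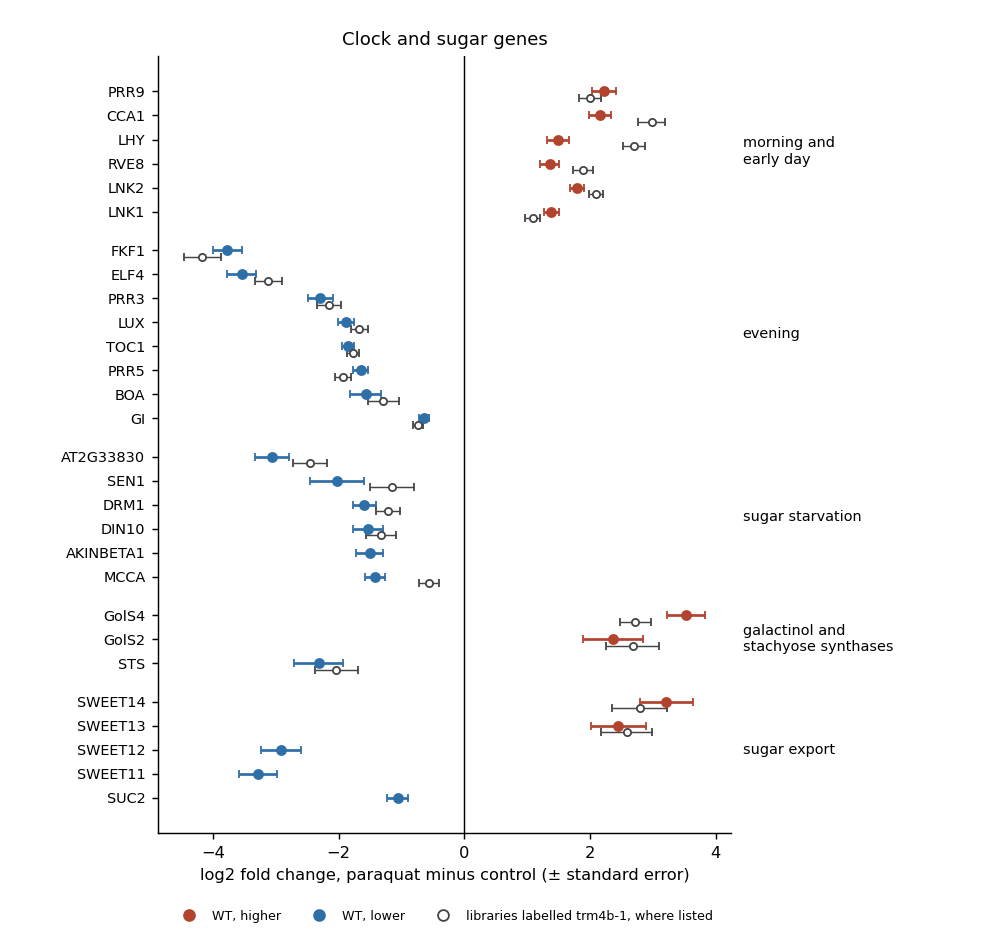
Log2 fold change with paraquat (± recovered standard error) of clock and sugar genes, with filled points for WT and open points for the libraries labelled trm4b-1 where the gene was listed there. Morning genes, LNK1 and LNK2 lie right of 0 and evening and starvation genes left of 0 in both sets where listed, while SWEET11, SWEET12 and SUC2 were listed in WT alone.

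Genes that typically respond to low oxygen moved apart. Of 16, 6 rose and 3 fell, with HRE2 at 5.73 ± 0.39, the haemoglobin gene HB1 at 2.27 ± 0.16 and the alcohol dehydrogenase gene ADH1 at 1.73 ± 0.22, but PDC2 at -1.32 ± 0.12 and HRE1 at -1.10 ± 0.13 in the authors' deposited table. PDC2 encodes a pyruvate decarboxylase and HRE1 is the closest relative of HRE2. AT4G33070 (PDC1), the paralog of PDC2, stood at 1.41 ± 0.13 in the authors' deposited table, so both pairs of paralogs moved in opposite directions.

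Transcription factor families differed in balance. NAC factors rose in 23 of 108 members (21.3%) and fell in 6, with NAC036 at 3.25 ± 0.75, NAC103, which acts in the unfolded protein response, at 3.24 ± 0.49 and NAC042, a regulator of camalexin synthesis, at 2.89 ± 0.17 in the authors' deposited table. The lowest member that fell was NAC074. WRKY factors, known for defence, rose in 16 of 67 members (23.9%) and fell in 13 (19.4%), from WRKY55 and WRKY46 at 3.37 ± 0.54 and 3.27 ± 0.41 to WRKY13 at -2.32 ± 0.57 in the authors' deposited table. Of 130 ERF and DREB factors 15 rose and 20 fell, and DREB2A, a regulator of heat and drought genes, fell by 1.56 ± 0.11 in the authors' deposited table. MYB factors were even, with 13 higher and 13 lower of 116 (22.4% changed, against 17.0% of all tested genes). MYB15, a regulator of lignin in defence, rose 15.9-fold in the authors' deposited table. Among 124 bHLH factors 13 rose and 16 fell (23.4% changed), with the balance turned to 8 higher and 5 lower at an adjusted p under 0.01. The 2 highest, BHLH100 (4.27 ± 0.67) and bHLH38 (2.89 ± 0.27 in the authors' deposited table), are regulators of the iron deficiency response.

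Protein folding genes that changed were mostly higher. Of 61 heat shock proteins and chaperones 18 rose (29.5%) and 1 fell. The authors' deposited table gave BIP3, a chaperone of the endoplasmic reticulum, 3.40 ± 0.43, the small heat shock protein genes AT5G51440 and HSP23.6-MITO 3.26 ± 0.20 and 2.90 ± 0.54 and HSP90.1 1.96 ± 0.17. Heat shock factors split, with HSFA2 at 1.98 ± 0.47 and HSFA6B at -1.90 ± 0.35 in the authors' deposited table.

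Genes for assembly of ribosomes that changed were all higher, by less than 1 on the log2 scale. Of 27, 12 rose (44.4%) and none fell, between 0.35 and 0.70, with EDA7 at 0.70 ± 0.14 in the authors' deposited table. The telo box (AAACCCTA), frequent in promoters of translation genes, stood in 16 of the 27 promoters of this list (59.3%) and in 6.22% of all promoters, and the site II element (TGGGCC) in 17 (63%) and 15.5%. Over all genes that rose the telo box stood in 7.3% of promoters, in 4.47% of those that rose by 1 or more and in 2.92% of those that fell. Site II stood in 15.8%, 8.59% and 12.6% of the same sets. Members that were not listed, such as FIB1, hold the telo box too. The telo box was known from translation genes, so its share here is not independent of the list. A member of the list is shown with its telo box in capitals, which here reads on the opposite strand (RefSeq, TAIR10.1).
EDA7: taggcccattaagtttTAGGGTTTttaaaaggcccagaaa, chr3:21092172-21092211, minus strand.
Pentatricopeptide repeat proteins, which act on organelle RNA, rose in 30 of 283 members (10.6%) and fell in 8 (2.83%), and genes matched as ribosomal proteins rose in 27 of 343 and fell in 35, shares of 7.87% and 10.2% near those of all tested genes. Of 49 histone genes none rose and 8 fell (16.3%, against 9.01% of all tested genes that fell and 17.0% that changed). Among 41 cyclins 4 rose and 6 fell (24.4% changed). The D-type cyclin gene CYCD3;3 (0.91 ± 0.17) and the mitotic cyclin gene CYCB1;4 (-0.75 ± 0.10) in the authors' deposited table moved in opposite directions.

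Cell wall families were mixed. Class III peroxidases, which oxidise wall phenols, had the highest share changed of the large wall families, with 18 of 70 higher (25.7%) and 20 lower (28.6%), from AT3G03670 at 4.46 ± 0.62 and PRX52 at 3.49 ± 0.43 to AT5G19890 at -2.78 ± 0.42 in the authors' deposited table. With a log2 change of at least 1 the balance of peroxidases turned, to 11 higher and 8 lower. Expansins, which loosen walls, rose in 10 of 36 members (27.8%) and fell in 5. EXPA1 stood at 1.89 ± 0.16 and EXPA17 at -1.67 ± 0.13 in the authors' deposited table, and the root hair expansins EXPA7 and EXPA18 were among those that fell. Xyloglucan endotransglucosylases rose in 5 of 32 members and fell in 9, arabinogalactan and fasciclin-like proteins rose in 2 of 49 and fell in 12 (24.5%), and cellulose synthases and their relatives rose in 1 of 39 and fell in 9 (23.1%). The authors' deposited table put XTH29 at 3.85 ± 0.69, XTH33 at -2.39 ± 0.39, FLA13 at -2.74 ± 0.28 and CESA1, a subunit of the primary wall cellulose synthase, at -0.43 ± 0.08.

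Genes for transport of water and solutes changed in both directions. Aquaporins fell in 13 of 33 members (39.4%) and rose in 2, with the tonoplast member TIP2;3 at -1.77 ± 0.14, the plasma membrane member PIP2;4 at -1.44 ± 0.17 and PIP2;5 at 1.81 ± 0.32 in the authors' deposited table. Amino acid transporters rose in 7 of 72 members and fell in 15 (20.8%), from AAP6 at 2.72 ± 0.19 to UMAMIT17 at -3.68 ± 0.15 in the authors' deposited table. Among 20 boron, potassium and sodium transport genes HKT1, which retrieves sodium from the xylem, rose by 2.71 ± 0.25 and HAK5, a potassium uptake carrier gene, fell by 1.05 ± 0.26 in the authors' deposited table. Of 25 zinc and nicotianamine genes 4 rose and 8 fell, with NAS4 at 1.58 ± 0.31, the zinc transporter gene ZIP9 at -1.53 ± 0.23 and the metallothionein gene MT2A at -1.83 ± 0.13 in the authors' deposited table. Glutamate receptor-like channels changed in 11 of 19 members, 7 higher and 4 lower. The neighbours GLR2.7, GLR2.8 and GLR2.9 rose, the first 2 by 3.05 ± 0.39 and 3.21 ± 0.42 in the authors' deposited table, against the fall of GLR2.3.

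Receptors and signalling proteins followed different patterns. Cysteine-rich receptor kinases rose in 8 of 40 members (20%) and fell in 1, with CRK24 at 3.50 ± 0.59 and CRK32 at 3.43 ± 0.67 in the authors' deposited table. Leucine-rich repeat kinases were near even, with 23 of 158 higher and 26 lower. Calcium sensor proteins and their kinases fell in 14 of 67 members (20.9%) and rose in 3, from CIPK12 at 0.80 ± 0.16 to CIPK20 at -2.18 ± 0.60 in the authors' deposited table. Of 40 MAP kinase cascade genes 3 rose and 5 fell, a share of 20% near the 17.0% of all tested genes. MPK11, a kinase activated in defence, stood alone at 3.25 ± 0.36 in the authors' deposited table, the other changed members lying within 0.43 and -0.63. The ubiquitin ligase gene PUB54 rose by 5.34 ± 0.64 in the authors' deposited table.

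Hormone genes changed in both directions. Of 24 gibberellin genes 1 rose and 7 fell (29.2%), with GA2OX1, which inactivates gibberellins, at -1.70 ± 0.26 and the DELLA repressor gene RGL3 at -1.27 ± 0.23 in the authors' deposited table. Of 26 ethylene genes 3 rose (11.5%) and 7 fell (26.9%), led by the stress-induced synthesis gene ACS6 at 1.00 ± 0.15 in the authors' deposited table. Jasmonate genes gave 2 higher and 2 lower of 23, a share of 17.4% that is near the 17.0% of all tested genes. Among them were the lipoxygenase gene LOX4 at 1.69 ± 0.55, the cyclase gene AOC2 at -1.35 ± 0.29 and the repressor gene TIFY7 at -1.19 ± 0.26 as the authors' deposited table lists them. Of 24 auxin/indole acetic acid genes 2 fell (8.33%, against 17.0% of all genes called in either direction), among them IAA32 at -1.63 ± 0.52 in the authors' deposited table. Of 13 lateral root initiation genes none was called, and ARF19 alone was listed, at -0.25 ± 0.09 with an adjusted p of 0.0774 in the authors' deposited table (limma). The unadjusted p of the genes not listed was not used here, and the deposited Storey q called 1 of the 13.

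Marker genes of cell types moved with these groups. Of 20 root hair genes 18 fell and none rose, between -0.34 and -2.18, with the wall protein genes PRP3 at -2.18 ± 0.22 and LRX1 at -1.71 ± 0.16 and the regulator genes RSL2 at -1.64 ± 0.13 and RSL4 at -0.83 ± 0.14 in the authors' deposited table. RHD6 and RSL1, the regulators at the top of that route, were not listed. Of 27 shoot and photosynthesis markers, genes that roots express weakly, 22 fell and none rose, with a median of -1.20 and LHCB1.4, LHCB1.2 and LHCB1.3 at -4.75 ± 1.19, -3.43 ± 0.91 and -2.79 ± 0.42 in the authors' deposited table. The LHCB1 genes are near-identical copies with uncertain separate values. Of 16 stem cell niche and meristem genes 4 rose and 1 fell, among them the peptide gene RGF3 at 1.44 ± 0.34 and PLT2, a regulator of the root meristem, at 1.04 ± 0.28 in the authors' deposited table. Xylem genes gave 1 higher and 5 lower of 21 (28.6% changed, against 17.0% of all tested genes). Columella and root cap genes gave 2 higher and 1 lower of 13 (23.1%). The part that the make-up of the root samples plays in the changes of root hair expansins, shoot genes among the largest falls, such as LHCB1.4 and CA1, and phloem genes was not tested.

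Some genes outside the protein-coding set were listed. Of 3480 annotated nuclear long noncoding RNA genes 57 were listed, and 39 of the 41 that changed fell, with a median of -1.17 over those listed. How many of the annotated noncoding genes were among the 33602 tested is not known, so no share is read from these counts. All 8 listed small nuclear RNA genes fell, from -0.89 to -4.12 for U6-1, and small nucleolar RNA genes rose in 21 cases and fell in 11. Such RNAs are short or held in near-identical copies, and whether counting used strand is not given in the sources used here, so antisense and overlapping genes cannot be told apart. In the mitochondrial genome 45 of 67 genes rose (67.2%, against 7.99% of all tested genes) and 2 fell. In the plastid genome 13 of 39 rose (33.3%) and 5 fell. At an adjusted p under 0.01, 28 mitochondrial genes were higher and 2 lower, and only 2 plastid genes were left, both lower.

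Of 325 microRNA genes 14 were listed and 7 changed, 6 higher and 1 lower. The values are those of the precursor transcript in total RNA, not of the mature RNA. To show which families these are, the mature sequences of the 3 genes that rose most, of MIR408 and of MIR169l, a relative of MIR169c, are given from RefSeq (TAIR10.1) with the seed, bases 2 to 8, in capitals.
ath-miR169c: cAGCCAAGgaugacuugccgg, chr5:15870868-15870888, minus strand.
ath-miR169l: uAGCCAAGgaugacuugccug, chr3:9876040-9876060, minus strand.
ath-miR857: uUUUGUAUguugaagguguau, chr4:7878198-7878218, minus strand.
ath-miR167c-5p: uAAGCUGCcagcaugaucuug, chr3:1306750-1306770, minus strand.
ath-miR408-3p: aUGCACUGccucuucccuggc, chr2:19319933-19319953, plus strand.
The microRNAs miR169c and miR169l, which target NF-YA factors, share the seed AGCCAAG, yet the authors' deposited table gave MIR169c 3.27 ± 0.72 and MIR169l -2.16 ± 0.72, the second with an adjusted p of 0.0521 that missed the threshold. MIR857 and MIR408, whose products target copper protein mRNAs, rose by 2.88 ± 0.67 and 0.89 ± 0.24 in the authors' deposited table. MIR167c, of a family that targets auxin response factors, rose by 2.43 ± 0.67 in the authors' deposited table.

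Changed genes also stood next to each other. In 13 runs of at least 3 annotated neighbours, 43 genes in all, every gene changed by 1 or more in the same direction, 6 runs higher and 7 lower, and these runs were picked after their values were seen. Besides the UGT73C and GLR2 runs they include LNK2 with AT3G54510, AT3G54520 and AT3G54530, at 1.79 ± 0.11, 2.97 ± 0.27, 3.74 ± 0.35 and 4.65 ± 0.24 in the authors' deposited table. PROPEP2, PROPEP1 and PROPEP3, which encode precursors of defence peptides, rose by 1.11 ± 0.20, 1.15 ± 0.24 and 1.57 ± 0.23 in the authors' deposited table. The UGT73C run and a run of LHCB1 genes are made of close copies with uncertain separate values. How many runs would arise without any tie between neighbours was not worked out. By chromosome the share of annotated genes that changed ran from 19% to 20.8%, and the median summed exon length was 1536 bases for genes that rose and 1502 for genes that fell.

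The libraries labelled trm4b-1 give the same treatment in samples that share none with the WT comparison. There 3040 genes changed with paraquat (9.05%), 1586 higher and 1454 lower. Both comparisons called 2203 genes, which is 38.6% of the genes called in WT and 72.5% of those called in the trm4b-1 libraries, and 2190 of them had the same direction. The retrograde list rose in 14 of 18 members there, evening clock genes fell in 9 of 12 and glutathione S-transferases rose in 17 of 51. Root hair genes fell in 1 of 20 and photosynthesis markers in 2 of 27 there, against 18 and 22 in WT.

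A difference between genotypes needs the interaction itself, which the authors tested and which was called for 107 genes (0.318%), 81 of them among the genes called in WT. For 4 retrograde members the change was smaller in the trm4b-1 libraries, with UPOX at 1.93 and NDB4 at 0.96 there in the authors' deposited table (interaction adjusted p = 4.04e-05 and 8.03e-04). AOX1D was not among them. For root hair genes the interaction was called in 6 of 20, with RSL2 (adjusted p = 0.00265) and PRP1 (0.016 in the authors' deposited table, limma) among them. For the photosynthesis markers it was called in 0 of 27, so their unlike counts above do not show a difference between genotypes. UMAMIT17 fell more in WT, and SWEET11 and SWEET12 fell in WT and were not listed in the trm4b-1 libraries. SWEET11, SWEET12 and UMAMIT17 had an interaction adjusted p of 0.00181, 0.016 and 1.02e-04 in the authors' deposited table. The 13 genes called in opposite directions include MIR408, at 0.89 ± 0.24 in WT and -3.03 ± 0.42 in the trm4b-1 libraries, the copper chaperone gene CCS, at -0.64 ± 0.14 and 0.58 ± 0.13, and FRO2, which reduces iron for uptake, at 1.04 ± 0.16 and -0.55 ± 0.15 in the authors' deposited tables.

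**Figure D5:**
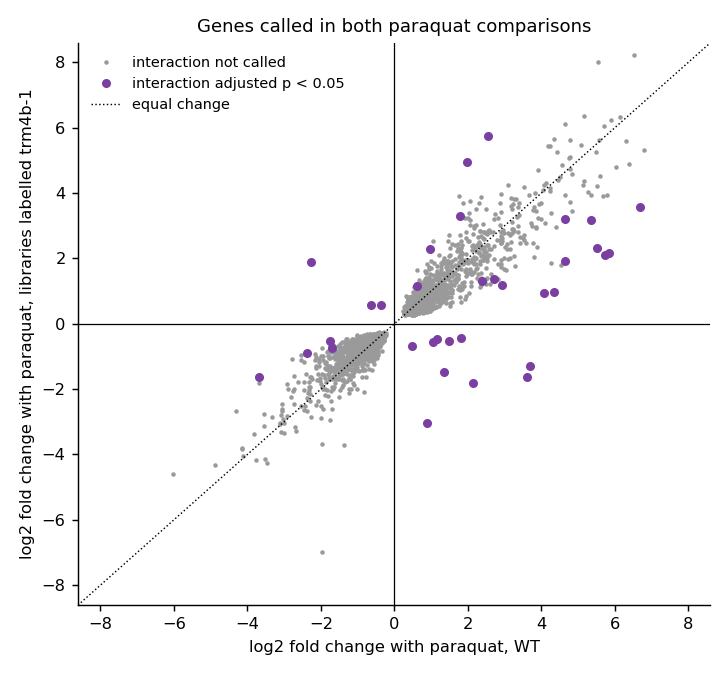
Log2 fold change with paraquat in WT (x axis) against that in the libraries labelled trm4b-1 (y axis) for the 2203 genes called in both, with purple points where the interaction was called and a dotted line of equal change. Most points lie near the dotted line, and the 13 genes with opposite directions lie where the signs of the axes differ.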

How the data were processed

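Reads were trimmed with Trimmomatic, aligned with TopHat to TAIR10 and compared with limma, per the submitters' processing notes, which give no versions. The counting tool, its strand setting and the normalization are not stated in these notes. The authors deposited, for each of 5 comparisons, a log2 fold change per gene (base taken from limma's convention) with a p-value, a Benjamini-Hochberg adjusted p and a Storey q-value, listing genes with an adjusted p under 0.1. There were 0 columns of values per sample, so no model was refitted, and depth and its precision are unknown. The p-values weigh the difference between group means against the spread between replicates within groups, which limma moderates across genes.

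From these values, the adjustment gave back how many genes had been tested (33602), and the degrees of freedom (15.3) came from 96 genes present in 3 tables. Standard errors are the change divided by the t quantile of its p. The recovery was tested on simulated data. Genes were called at an adjusted p under 0.05 over all genes. Named genes are the 15 largest called changes and 3 lowest adjusted p in each direction, up to 6 largest called members of each list with up to 3 that moved against its majority, and every listed paraquat transport gene; other names are stated as not listed, or were picked after their values were seen. The members and the 81 lists were chosen with earlier results of these data known. Plastid and other unrelated genes that share autophagy symbols, and laccases matched to cellulose synthases, were taken out of those lists after their values were seen.

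Gene names and promoters (250 bases before to 50 after the annotated start) came from RefSeq TAIR10.1, which matched 98.6% of listed IDs. The deposited gene model has the same 5′ end for 20.7% of genes, with a median distance of 71 bases. Motifs were searched on both strands. Calculations used scipy 1.17.1, pandas 2.3.3 and numpy 2.4.6 under Python 3.11.15, and plots matplotlib 3.10.9.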

Additional observations from a re-analysis of the deposited data

Results flagged for a closer look

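For the genes below, all named above, the change with paraquat differed between the genotypes by the authors' own interaction test, and each difference is given here on the log2 scale as the change in the libraries labelled trm4b-1 minus that in WT, from the authors' deposited table. The adjusted p of these differences (limma) ran from 4.04e-05 for UPOX to 0.0424 for PRX52. Among the genes that rose in WT, the difference was -3.12 for the MATE carrier gene AT2G04050, -3.62 for the ethylene response factor gene HRE2, -3.67 for AT5G52940 and -1.46 for AT3G54530, beside LNK2. In the retrograde list it was -2.17 for AT12CYS-2, -2.72 for UPOX, -3.37 for NDB4 and -3.11 for NDB3, each gene being lower in the change of the trm4b-1 libraries. It was -3.37 for the peroxidase gene PRX52, -3.66 for NAC103, -3.60 for the transporter gene ABCC9, -1.34 for the amino acid carrier gene AAP6 and -1.47 for the camalexin gene PAD3. Of the metal genes, the difference was -1.60 for FRO2, -3.92 for MIR408, 1.22 for CCS and 1.76 for ZIP9.

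Among genes that fell in WT, the difference was 1.31 for RSL2, 2.25 for PRP1 and 1.27 for LRX1, all of the root hair list. It was 2.66 for SWEET12, 3.52 for SWEET11 and 2.04 for UMAMIT17. FRO2, MIR408 and CCS were called in opposite directions in WT and in the trm4b-1 libraries.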

How the results depend on the processing

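No paired analysis was possible because the files used here hold comparisons and no values per sample. For the same reason leaving out a replicate, another normalization and another filter on low values were not run. The count of 5711 changed genes in WT became 3450 at an adjusted p under 0.01, 1858 with a log2 change of at least 1 as well, and 648 by Holm adjustment. It stayed within 1.5 times without the organelle genomes, with the deposited Storey q and at an adjusted p under 0.1.

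Of the 81 lists, the count of called members moved by over 1.5 times, with its balance kept, in 32 at an adjusted p under 0.01, in 59 with a log2 change of at least 1 and in 5 by Storey q. The balance of higher and lower turned at an adjusted p under 0.01 for bHLH factors (13 called) and plastid genome genes (2 called). With a log2 change of at least 1 it turned for columella and root cap genes (1 called), bHLH factors (12), class III peroxidases (19), nitrate and peptide transporters (1) and the MAP kinase cascade (1). Each rule leaves a smaller number of genes, and the cause of these turns was not tested.

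With promoters read from 500 bases before the start, chosen after seeing the data, the share holding the phosphate element (GNATATNC) relative to all promoters was 1.07 for genes that rose and 1.01 for genes that fell by 1 or more, both having been below 1. The standard errors rest on 15.3 degrees of freedom recovered from the deposited p-values. With 8 in their place the median standard error of the changed genes went from 0.147 to 0.109. Calls use the deposited adjusted p, so they cannot depend on this setting. Depth is unknown, so low counts behind single changes, such as those of U6-1 or LHCB1.4, cannot be seen.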
